A study of Mus musculus with 11 samples.

Results

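The genes described here are 33 genes of the integrated stress response and of tRNA charging, chosen by name as known regulators, targets and enzymes of that response. All 33 had a row in the deposited table of 53453 gene rows, and all 33 passed the filter on low values. The RNA came from primary neurospheres, free-floating spheres of dividing neural stem cells and progenitors, grown from mouse brain at E15.5. The groups were 5 libraries from embryos with Klf5 overexpression and 6 libraries from control embryos, labelled as having no treatment. The protocol counts 5 and 6 embryos, so each library was taken as 1 embryo. The sources used here do not give the strain, the promoter or vector behind the Klf5 overexpression, or the genotype of the control embryos.

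The integrated stress response starts when a kinase senses a lack of amino acids, unfolded protein in the endoplasmic reticulum (ER), double-stranded RNA or low haem, and phosphorylates the translation factor eIF2. Overall protein synthesis then falls, while the mRNA of the transcription factor ATF4 is translated more. ATF4 pairs with C/EBP family proteins on a composite DNA element, the C/EBP-ATF response element (CARE), and raises genes for amino acid synthesis, uptake and tRNA charging. Because ATF4 is controlled largely at translation, its mRNA level does not by itself give its activity, and levels of its target mRNAs are the usual readout. Cytosolic tRNA synthetases join each amino acid to its tRNA, and several of their genes are known ATF4 targets.

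Some of the promoters hold the core of the DNA element that ATF4 binds. The core letters TGATGNAA were searched on both strands of the 250 bases before each RefSeq transcription start (GRCm38.p6). Of the 28 listed genes with a promoter sequence, 10 held a match, against 3.91% of 27025 genes with a promoter sequence. Since the genes were listed as known members of the pathway, this share describes the list. The ER stress elements TGACGTGG and CCAAT followed after 9 bases by CCACG, searched on both strands, matched none of the 28 promoters and 0.603% and 0.130% of all genes. The 10 matches lay from 200 to 8 bases before the start. The windows below are given because they include Nupr1, Asns and Chac1, to which the results return; each reads 5′ to 3′ on the gene's strand, stops at the transcription start at the latest, and has the match in capitals.
Atf3 (chr1:191183411-191183468, minus strand): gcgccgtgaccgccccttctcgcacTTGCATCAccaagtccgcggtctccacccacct
Jdp2 (chr12:85599358-85599415, plus strand): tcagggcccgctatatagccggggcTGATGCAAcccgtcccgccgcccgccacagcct
Nupr1 (chr7:126625548-126625605, minus strand): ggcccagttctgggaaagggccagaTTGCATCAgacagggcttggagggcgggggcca
Chac1 (chr2:119351024-119351081, plus strand): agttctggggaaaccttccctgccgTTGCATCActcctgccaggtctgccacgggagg
Asns (chr6:7693210-7693257, minus strand): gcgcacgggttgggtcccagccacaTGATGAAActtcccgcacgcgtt
Vldlr (chr19:27216795-27216852, plus strand): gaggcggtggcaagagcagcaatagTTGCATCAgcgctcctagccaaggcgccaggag
Herpud1 (chr8:94386292-94386349, plus strand): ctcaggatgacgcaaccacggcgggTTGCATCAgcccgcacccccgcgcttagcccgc
Aars (chr8:111033705-111033762, plus strand): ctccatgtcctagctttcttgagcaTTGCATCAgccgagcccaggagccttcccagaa
Gars (chr6:55037946-55038000, plus strand): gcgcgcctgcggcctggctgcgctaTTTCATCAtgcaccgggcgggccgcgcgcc
Tars (chr15:11399659-11399698, minus strand): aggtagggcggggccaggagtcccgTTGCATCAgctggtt

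**Figure D1:**
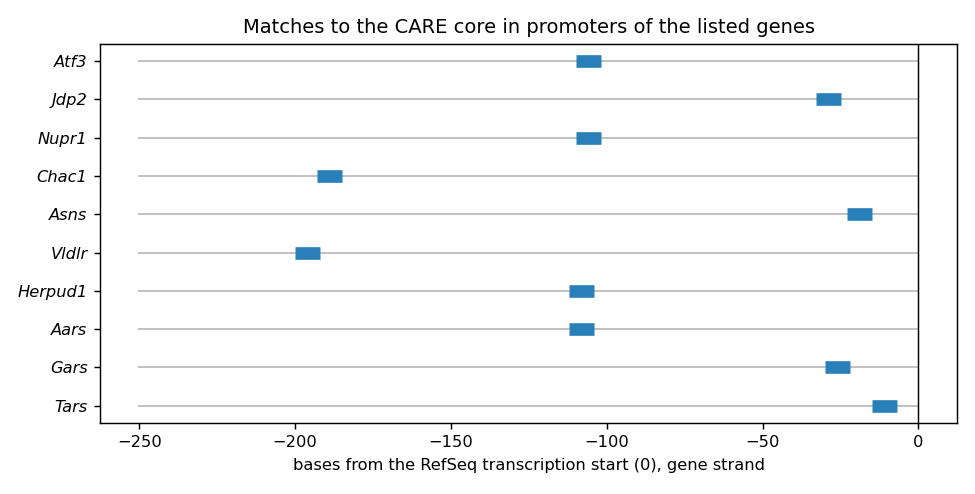
Position of each match to TGATGNAA (blue) in the 250 bases before the RefSeq transcription start at 0, for the 10 listed genes that hold one, with distance in bases on the gene's strand. The matches of Atf3, Nupr1, Herpud1 and Aars begin 110 to 112 bases before the start, while those of Jdp2, Asns, Gars and Tars begin within 33 bases of it.

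Values are TPM (transcript abundance per length, a measure meant to have a common total per library), as the authors deposited them. Levels of different genes can thus be compared per length, but sequencing depth is unknown. Klf5 had 53.6 to 93.0 TPM in the overexpression libraries and 0.371 to 1.29 TPM in the controls. All 53453 gene rows together summed to 730832 to 821967 TPM per overexpression library and 814208 to 846780 TPM per control library. The deposited rows thus do not reach a common total, and their sums ran lower with overexpression, with overlap between the groups. Rows resembling ribosomal RNA took 12.4 to 30.2% and 19.3 to 31.2% of these sums. All 8 neural progenitor markers reached 1 TPM in some library, and summed to 3531 to 5514 TPM with overexpression and 4502 to 7606 TPM in controls. Of the 8, Vim (1572 and 1075 TPM in mean) and Nes (382 and 342 TPM) had a higher mean with overexpression and the other 6 a lower one, among them Fabp7 (2105 and 3596 TPM). The 5 astrocyte markers summed to 17.0 to 45.4 TPM and 36.2 to 100.2 TPM, with lower means of Aldh1l1 (15.8 and 62.6 TPM) and Slc1a2 (4.65 and 11.9 TPM) but higher means of S100b (8.42 and 0.956 TPM), Aqp4 (2.87 and 1.36 TPM) and Gfap, which stayed under 1 TPM in every library. The 6 oligodendrocyte lineage markers summed to 1657 to 2025 TPM and 1629 to 2777 TPM, with Cspg4 at 123 and 45.7 TPM in mean. The 5 neuron markers summed to 193 to 298 TPM with overexpression and 224 to 330 TPM in controls, with 0 of 5 means higher with overexpression. The 5 choroid and ependymal markers summed to 11.7 to 30.5 TPM and 18.6 to 26.4 TPM, with 3 of 5 means higher. Mural and mesenchymal markers summed to at most 3.03 TPM and 5.76 TPM. Microglia, endothelial and erythroid markers summed to at most 1.99 TPM in any overexpression library and 1.06 TPM in any control. In bulk RNA, fewer cells of a type and less RNA per cell cannot be told apart, and the part of these differences in the results was not tested.

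With Klf5 overexpression, 2 of the 33 genes rose and 1 fell, while 30 did not pass the test. Nupr1, a small stress-induced chromatin protein, stood 2.72-fold above controls in mean TPM, and Ddit4 (REDD1), a stress-induced inhibitor of mTORC1 signalling, 1.61-fold. Gpt2, the mitochondrial alanine aminotransferase, stood 1.45-fold lower than in controls. The factors Atf4 and Ddit3, the classical ATF4 targets Asns, Chac1 and Trib3 and all 11 cytosolic tRNA synthetases did not pass. The test was limma on log2(TPM + 1) across 13549 genes with Benjamini-Hochberg adjustment at 0.05, a scale that understates changes of genes near 1 TPM. The share called, 3 of 33 genes (9.09%), compares with 3.72% of all tested genes called in either direction, 2.29% as higher and 1.43% as lower. The median log2 fold change of the 33 genes was -0.06, and that of all tested genes was -0.04. Of the 33 genes, 24 had a log2 fold change below 0, as did 7800 of all 13549 tested genes. Of the 33, 19 or 20 did after rescaling by trimmed means or quantiles or without the ribosomal RNA-like and mitochondrial rows. When overexpression replicate 2 was left out 11 did, which put the median at 0.03.

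**Figure D2:**
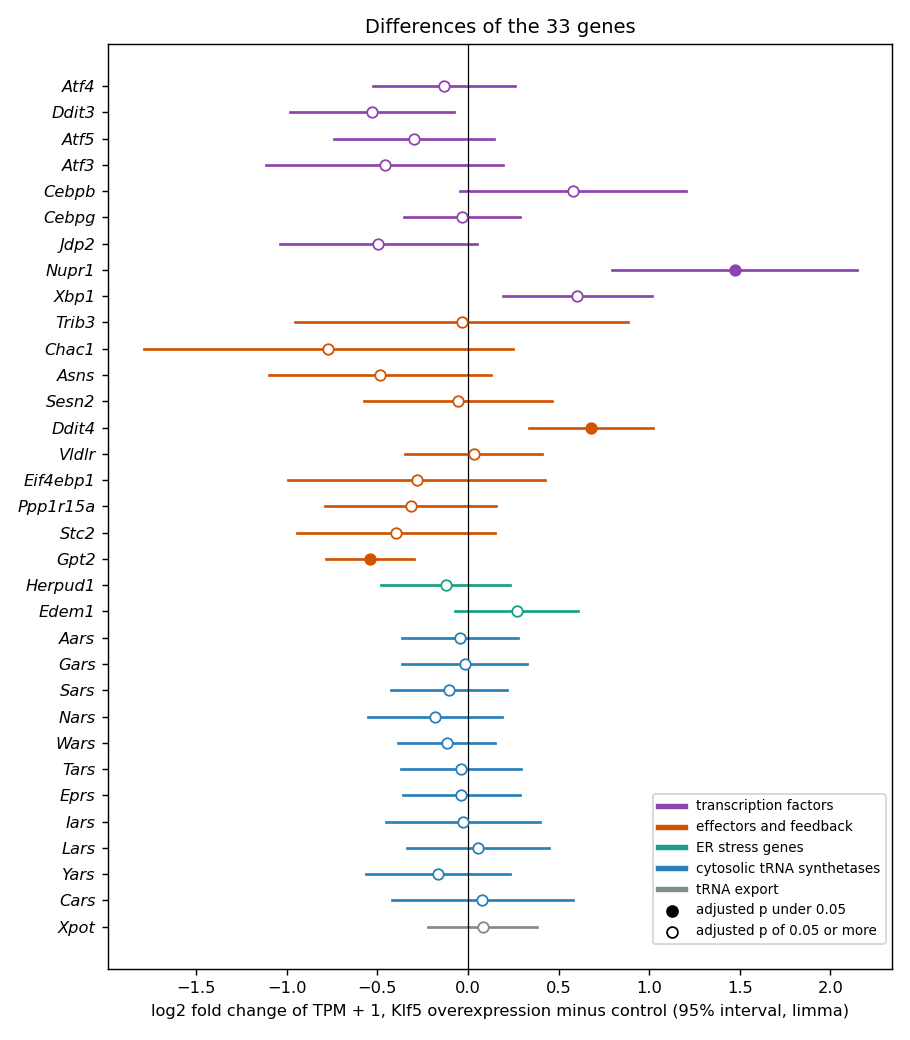
Log2 fold change of TPM + 1 (x axis, Klf5 overexpression minus control) of the 33 genes with its 95% limma interval, coloured by role; filled points passed an adjusted p of 0.05. Nupr1 at 1.47, Ddit4 at 0.68 and Gpt2 at -0.54 are the filled points, and the synthetases lie between -0.18 and 0.08.

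Nupr1 (ENSMUSG00000030717, chromosome 7, 126623249 to 126630861, minus strand, GRCm38) had 25.6, 18.2, 23.1, 17.1 and 34.5 TPM in overexpression replicates 1 to 5, against a lowest value of 2.56, a median of 7.73 and a highest value of 17.6 TPM in controls. Of the overexpression libraries, 4 lay above every control, and replicate 4 lay just under control replicate 2. The log2 fold change was 1.47 ± 0.32 (SE; limma adjusted p = 0.0136, higher in 5 of 5 libraries than the control mean). It passed with each library left out (adjusted p 0.00216 to 0.0468). Without a filter on low values the adjusted p was 0.0971 and the call was lost. Its promoter holds the CARE core printed above, and the other 9 genes with that match did not pass.

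Ddit4 (chromosome 10, 59949669 to 59951834, minus strand) had 409.9, 243, 304, 252 and 244 TPM in overexpression replicates 1 to 5. In controls the lowest value was 142, the median 180.6 and the highest 244 TPM. Overexpression replicate 1 was the highest of all libraries, replicates 3 and 4 also lay above every control, replicate 5 lay just above control replicate 4, the top control, and replicate 2 just under it. The log2 fold change was 0.68 ± 0.16 (SE; limma adjusted p = 0.0240). The call was lost without control replicate 1, control replicate 5, overexpression replicate 1 or overexpression replicate 3, with adjusted p between 0.0504 and 0.0591, without a filter (0.105) and without a variance trend (0.0597).

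Gpt2 (chromosome 8, 85492576 to 85527560, plus strand) had 87.6, 61.8, 84.2, 70.96 and 66.8 TPM in overexpression replicates 1 to 5, and a lowest value of 96.9, a median of 108 and a highest value of 118 TPM in controls. Every overexpression library lay below every control, and Gpt2 was the 1 gene of the 33 whose groups did not overlap, as happened for 3.29% of all tested genes. The controls were close together, the highest being 1.22-fold the lowest. The log2 fold change was -0.54 ± 0.12 (SE; limma adjusted p = 0.0127), and it passed with each library left out (adjusted p 0.00627 to 0.0380).

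**Figure D3:**
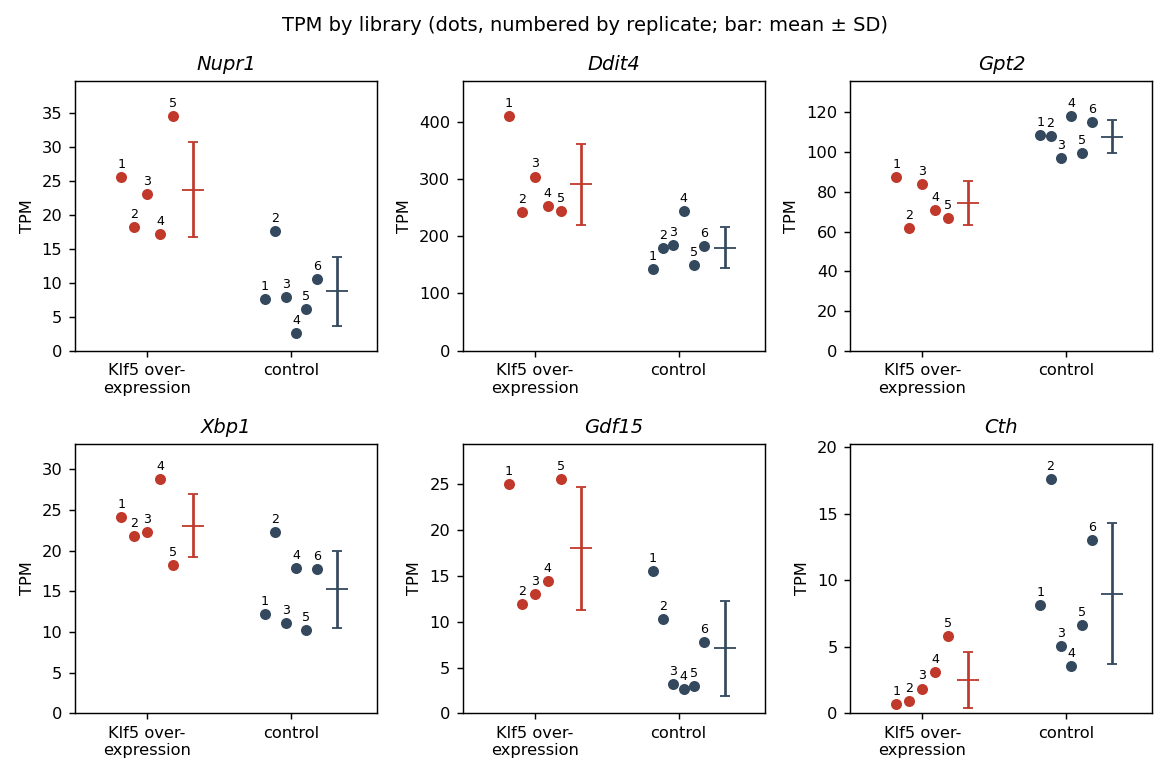
TPM of 6 genes by library (dots, numbered by replicate), with overexpression in red on the left and control in dark blue on the right; the bar gives the mean ± SD of 5 and 6 libraries. All 5 overexpression libraries lie below all 6 controls for Gpt2, while the groups overlap for Nupr1, Ddit4, Xbp1, Gdf15 and Cth.

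Among the other transcription factors, Atf4 itself was abundant in both groups and did not pass. Atf4 (chromosome 15, 80255184 to 80257541, plus strand) had 198, 109, 145, 202 and 183 TPM in overexpression replicates 1 to 5, against a lowest value of 133, a median of 187 and a highest value of 230.0 TPM in controls. The groups overlapped, and overexpression replicate 2 was the lowest of the 11 libraries. Its log2 fold change of -0.13 ± 0.18 (SE) had a 95% interval of -0.52 to 0.26 and a limma adjusted p of 0.894. Ddit3 (CHOP), a factor of prolonged stress, had 15.4, 7.01, 9.08, 14.4 and 9.44 TPM with overexpression and 10.9 to 21.4 TPM in controls. Its limma adjusted p was 0.266, its unadjusted p 0.0238, and all 5 overexpression libraries lay below the control mean. Ddit3 overlaps the methionyl-tRNA synthetase gene Mars on the other strand only at the ends of both genes (chromosome 10, 127296221 to 127296288). Unstranded counting would not keep reads within that stretch apart.

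Xbp1 encodes the factor that the ER stress sensor IRE1 activates by splicing, which gene-level TPM does not show. It had 24.1, 21.9, 22.2, 28.8 and 18.3 TPM with overexpression, against a lowest value of 10.3, a median of 15.0 and a highest value of 22.2 TPM in controls. All 5 overexpression libraries lay above the control mean, but the groups overlapped. With a log2 fold change of 0.60 ± 0.19 (SE), Xbp1 missed the threshold (limma adjusted p = 0.124). It passed with trimmed-mean scaling (0.0316), quantile normalization (0.0330), removal of the ribosomal RNA-like and mitochondrial rows (0.0308), and without control replicate 2 (0.0457). Cebpb, a C/EBP factor that stress raises, had 12.6 ± 4.58 TPM in overexpression libraries (SD, n = 5) and 8.39 ± 3.98 TPM in control libraries (SD, n = 6; limma adjusted p = 0.462). Cebpg, a partner of ATF4, had 22.2 ± 4.12 and 22.6 ± 3.63 TPM, and its log2 fold change of -0.03 changed sign with scaling.

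Atf5, which like Atf4 is controlled at translation, had 64.8 ± 15.96 TPM in overexpression libraries (SD, n = 5) and 80.0 ± 22.3 TPM in control libraries (SD, n = 6; limma adjusted p = 0.674). Jdp2, a bZIP repressor, had 14.7 ± 4.32 and 21.9 ± 9.36 TPM (adjusted p = 0.475). Atf3, a stress-induced repressor, was near the floor, at 1.40, 0, 0.898, 0.686 and 1.39 TPM with overexpression and 0.687 to 3.09 TPM in controls. It was listed at 0 in overexpression replicate 2.

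Of the 10 effector and feedback genes, Ddit4 rose, Gpt2 fell and 8 did not pass (20% called, beside 3.72% of all tested genes). The median log2 fold change of the 10 was -0.30, against -0.04 for all tested genes. In overexpression replicate 2 their median deviation from the control mean was -1.08 on the log2 scale, against -0.19 for all tested genes. In the other overexpression libraries that of the 10 lay between -0.30 and 0.07. Chac1, which degrades glutathione, had 11.2, 1.84, 8.05, 15.6 and 17.3 TPM in overexpression replicates 1 to 5, against a lowest value of 5.48, a median of 19.5 and a highest value of 33.5 TPM in controls. The highest control was 6.11-fold the lowest. Its log2 fold change of -0.77 ± 0.48 (SE) had a 95% interval of -1.79 to 0.25 (limma adjusted p = 0.610), and was -0.32 without overexpression replicate 2. Trib3, a pseudokinase that restrains ATF4, spanned 2.21 to 11.4 TPM with overexpression and 1.88 to 17.2 TPM in controls, a 9.15-fold range between controls. Its log2 fold change was -0.04 ± 0.43 (SE; adjusted p = 0.998).

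Asns, asparagine synthetase, had 96.5, 33.9, 97.8, 121 and 116 TPM with overexpression, against a lowest value of 73.4, a median of 129 and a highest value of 162 TPM in controls. All 5 overexpression libraries lay below the control mean, yet 4 of them lay within the control range. The log2 fold change was -0.49 ± 0.29 (SE; limma adjusted p = 0.576), and -0.16 without overexpression replicate 2. Stc2, a secreted glycoprotein of ER stress, had 7.30 ± 2.60 TPM in overexpression libraries (SD, n = 5) and 9.70 ± 2.80 TPM in control libraries (SD, n = 6). Ppp1r15a (GADD34), which directs the phosphatase that reverses eIF2 phosphorylation, had 7.16 ± 2.43 and 9.02 ± 2.40 TPM. Sesn2, a leucine sensor that restrains mTORC1, had 49.0 ± 9.67 and 54.1 ± 22.5 TPM, and Eif4ebp1, a repressor of cap-dependent translation, 35.9 ± 15.2 and 42.6 ± 17.7 TPM. Vldlr, a lipoprotein and reelin receptor, had 15.96 ± 3.00 and 15.8 ± 4.34 TPM. Limma adjusted p of these last 5 genes lay between 0.636 and 0.987.

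The ER stress genes Herpud1 and Edem1, which serve the degradation of misfolded ER proteins, did not pass. Herpud1 had 15.3 ± 3.08 TPM in overexpression libraries (SD, n = 5) and 16.7 ± 2.79 TPM in control libraries (SD, n = 6; limma adjusted p = 0.889). Edem1 had 16.1 ± 3.46 and 13.0 ± 1.66 TPM (adjusted p = 0.577), with 3 overexpression libraries above the highest control.

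None of the 11 cytosolic tRNA synthetases passed in limma, and 0 of 11 reached an unadjusted p under 0.05, which 1702 of all 13549 tested genes did. Their log2 fold changes lay between -0.18 (Nars) and 0.08 (Cars), with a median of -0.04, next to -0.04 for all tested genes. The lowest bound of their 11 95% intervals was -0.57 (Yars) and the highest 0.58 (Cars). Without overexpression replicate 2, the value of Nars was -0.02 and that of Cars 0.21. Summed over the 11 genes, the level was 978, 591, 839.6, 1009 and 865 TPM in overexpression replicates 1 to 5, against a lowest value of 733, a median of 868 and a highest value of 1102 TPM in controls. The sums overlap, with 1 overexpression library below all controls.

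In mean level with overexpression, Gars (glycine) was the most abundant synthetase, with 162 ± 32.4 TPM (SD) over the 5 overexpression libraries and 164 ± 33.02 TPM over the 6 controls. Nars (asparagine) followed, at 132 ± 33.2 and 148 ± 27.7 TPM, and then Sars (serine), at 97.7 ± 20.5 and 104 ± 14.5 TPM. The ranges of mean ± SD of Gars and Nars overlapped in both groups. Cars (cysteine) was the lowest, at 34.1 ± 7.72 and 33.5 ± 12.6 TPM, next to Tars (threonine), at 43.6 ± 7.22 and 45.2 ± 9.99 TPM. Between these stood Eprs (glutamate and proline), at 79.7 ± 13.0 and 82.4 ± 17.1 TPM, and Aars (alanine), at 73.9 ± 12.2 and 76.5 ± 14.6 TPM. Yars (tyrosine), Lars (leucine), Iars (isoleucine) and Wars (tryptophan) averaged 47.9 to 68.0 TPM with overexpression and 52.02 to 75.03 TPM in controls. Xpot, the exportin that carries tRNA out of the nucleus, had 54.4 ± 6.03 and 51.9 ± 10.2 TPM (limma adjusted p = 0.924).

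The 33 genes tended to stand high or low together in a library. Overexpression replicate 2 held the lowest value of its group for 28 of the 33 genes, including all 11 synthetases, against 30.3% of all tested genes. In that library the median deviation from the control mean was -0.57 on the log2 scale for the 33 genes and -0.19 for all tested genes. Cebpg, Nupr1, Xbp1, Ppp1r15a and Edem1 had their lowest value of that group in another library. Nupr1, Ddit4, Xbp1 and Edem1 lay above the control mean on the log2 scale even there. Ribosomal RNA-like rows took 30.2% of that library, and 29.2% of overexpression replicate 5. In replicate 5 the median deviation was -0.02 for the 33 genes and -0.27 for all tested genes. It held the lowest value of its group for 3 of the 33 genes, against 47.5% of all tested genes. Among controls, replicates 2 and 6 each held the highest value for 14 of the 33 genes, against 19.5% and 28.6% of all tested genes. Control replicate 4 held the lowest value for 16 of the 33 and control replicate 5 for 12 of them, against 8.66% and 31.2% of all tested genes. The part of library composition in this pattern was not tested. Without overexpression replicate 2, the log2 fold changes of Atf5, Atf3, Stc2 and Wars were also more than 1.5 times smaller in size, at -0.11, -0.25, -0.15 and -0.06, against -0.30, -0.46, -0.40 and -0.12 with all libraries.

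**Figure D4:**
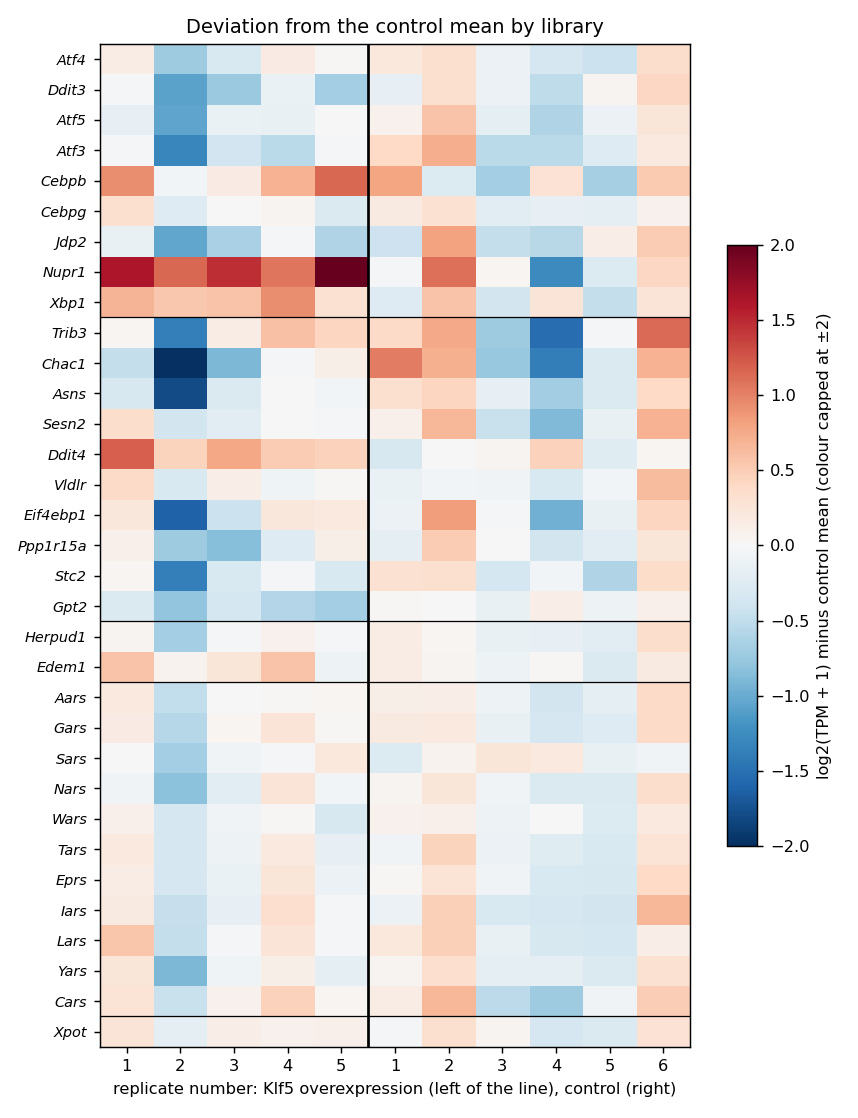
Log2(TPM + 1) of the 33 genes (rows, by role) minus the control mean, by library (columns, 5 overexpression libraries left of the line and 6 controls right of it), with colour capped at 2 in either direction. Overexpression replicate 2 is blue in most rows, while Nupr1, Ddit4 and Xbp1 are red in all 5 overexpression columns.

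Within the 6 control libraries, levels of most of these genes went with that of Atf4 on the log2 scale. Pearson's r with Atf4 was above 0 for 30 of 32 genes, with a median of 0.833, against a median of 0.130 for all tested genes. An r of at least 0.9 was reached by 8 of the 32, and by 1.97% of all tested genes. The values share a TPM scale and 6 libraries, and the genes are not independent. Nars had an r of 0.973 (exact permutation p = 0.00417) and a Spearman rho of 1 (exact permutation p = 0.00278, the smallest that 6 libraries allow). Asns had an r of 0.931 and a rho of 0.886 (exact permutation p = 0.0181 and 0.0333). Leaving out control replicates 4 and 5, which lay farthest from the median Atf4 level, r was 0.912 for Nars and 0.987 for Asns. Exceptions were Sars, with an r of -0.291 and a rho of -0.0857 (exact permutation p = 0.540 and 0.919), and Ddit4, with -0.229 and -0.0857 (exact permutation p = 0.686 and 0.919). Of the other called genes, Nupr1 had an r of 0.771 and a rho of 0.829 (exact permutation p = 0.0514 and 0.0583), and Gpt2 had 0.314 and 0.257 (exact permutation p = 0.476 and 0.658). Without the same control replicates r was 0.569 for Nupr1, 0.957 for Gpt2, -0.612 for Sars and -0.156 for Ddit4. Adjusted over all tested genes, none of the 32 relations passed by either measure, the smallest adjusted p being 0.553 for Pearson's r and 0.509 for Spearman's rho. Even the rho of 1 of Nars, the highest possible, had that adjusted p of 0.509. The adjusted p also depends on how many tested genes reach the smallest p that 6 libraries allow. In these data no relation could pass by rho, so this outcome decides nothing about the relations.

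**Figure D5:**
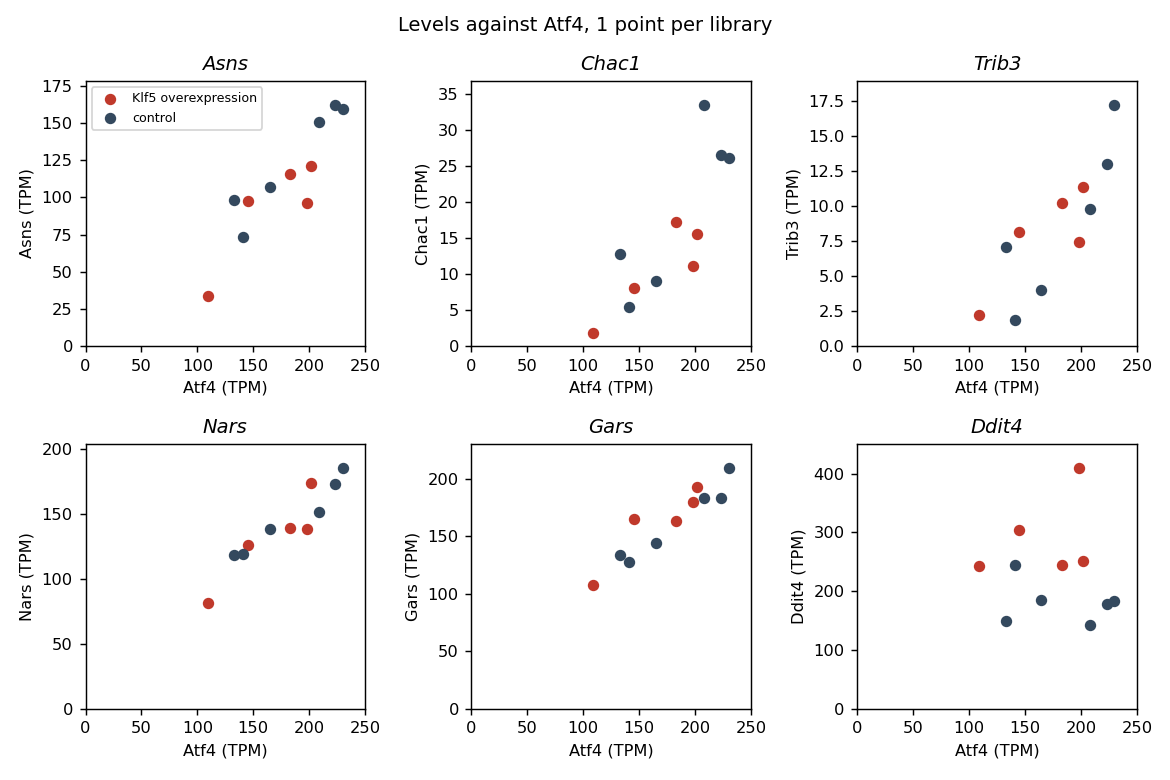
TPM of 6 genes (y axes) against that of Atf4 (x axes), with 1 point for each of 5 overexpression libraries (red) and 6 controls (dark blue). Asns, Chac1, Trib3, Nars and Gars are higher in libraries with more Atf4, with overexpression replicate 2 at the left end at 109 TPM of Atf4, whereas Ddit4 is not.

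The 10 genes with a CARE core match had a median log2 fold change of -0.08 and a median r with Atf4 of 0.859 in controls, and the 18 with a promoter sequence but no match had -0.05 and 0.811. Of these, 1 of the 10 and 2 of the 18 passed the test, beside 3.72% of all tested genes.

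Genes of the same pathway outside the 33 were read in the same fit, from 6 lists of 91 genes, of which 89 were tested. Of these 89, 1 rose and 1 fell (2.25%, beside 3.72% of all tested genes). Both were among the 18 tested genes of the list of other ATF4 targets. Of these 18, 14 had a log2 fold change below 0, and the median was -0.26. Of all 13549 tested genes, 7800 lay below 0, and the median was -0.04. In limma 4 of the 18 reached an unadjusted p under 0.05, as did 1702 of all 13549 tested genes. Besides the called genes these were Slc6a9, a glycine transporter, at -0.38 (adjusted p = 0.163), and Phgdh, an enzyme of serine synthesis, at -0.38 (adjusted p = 0.388). Gdf15, a secreted stress cytokine that is also a p53 target, had 24.96, 11.96, 13.0, 14.5 and 25.5 TPM in overexpression replicates 1 to 5, against a lowest value of 2.66, a median of 5.49 and a highest value of 15.49 TPM in controls. The groups overlapped through control replicate 1. Its log2 fold change was 1.41 ± 0.37 (SE; limma adjusted p = 0.0451), and the call was kept in 2 of the 11 fits that left out a library (adjusted p 0.00807 to 0.130). Cth, which makes cysteine from cystathionine, had 0.721, 0.933, 1.87, 3.12 and 5.85 TPM with overexpression, against a lowest value of 3.57, a median of 7.38 and a highest value of 17.6 TPM in controls. Its log2 fold change was -1.54 ± 0.39 (SE; adjusted p = 0.0359), and the call was kept in 4 of the 11 fits (0.0124 to 0.102). Both calls were lost after trimmed-mean scaling (adjusted p 0.0600 for Gdf15 and 0.0653 for Cth), quantile normalization (0.0625 and 0.0617) and removal of the ribosomal RNA-like and mitochondrial rows (0.0584 and 0.0611), as well as without a filter (0.214 and 0.185), without a variance trend (0.0771 and 0.0580) and with robust variances (0.0845 and 0.0507). The call of Gdf15 was also lost with a pseudocount of 0.1 (0.0554).

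The other lists held no called gene in limma. For the counts at an unadjusted p under 0.05 below, the number over all 13549 tested genes was 1702. Of 13 other cytosolic synthetase and scaffold genes 0 passed, with 1 at an unadjusted p under 0.05, which was Dars (aspartate), at 51.97 ± 9.85 TPM in overexpression libraries (SD, n = 5) and 63.3 ± 4.16 TPM in control libraries (SD, n = 6; limma adjusted p = 0.336). Qars (glutamine) had 30.9 ± 3.48 and 26.02 ± 5.44 TPM (adjusted p = 0.610). Of 17 mitochondrial synthetases 0 passed, and 0 at an unadjusted p under 0.05, with Ears2 at 4.20 ± 1.36 and 6.74 ± 2.89 TPM (adjusted p = 0.541) and Sars2 at 11.3 ± 3.07 and 13.0 ± 1.68 TPM (0.725). Lars2, the mitochondrial leucine enzyme, was listed at 824 to 2066 TPM with overexpression and 599 to 2539.5 TPM in controls. Its highest control was 4.24-fold the lowest. The mean of each other mitochondrial synthetase was at most 34.9 and 35.3 TPM. Whether the listed level of Lars2 reflects its mRNA was not tested.

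Of 17 genes of the eIF2 kinases, eIF2, its exchange factor eIF2B and its phosphatase, 0 passed, and 0 at an unadjusted p under 0.05. Eif2ak1, the haem-sensing kinase HRI, had 19.2 ± 2.65 TPM in overexpression libraries (SD, n = 5) and 23.1 ± 2.54 TPM in control libraries (SD, n = 6; limma adjusted p = 0.475). Eif2s3x, the X-linked gamma subunit of eIF2, had 111 ± 14.9 and 98.0 ± 14.2 TPM (0.680). Its Y-linked copy Eif2s3y had 44.96 and 30.8 TPM in overexpression replicates 1 and 3 and at most 0.633 TPM in the other 3, and 40.1 to 41.8 TPM in control replicates 1, 4 and 6 and 0 in the other 3, in step with the Y-linked genes Ddx3y, Uty and Kdm5d. Of 17 tested genes of the ER unfolded protein response 0 passed, and 1 at an unadjusted p under 0.05, Atf6b, at 28.7 ± 7.30 and 37.5 ± 4.85 TPM (0.281). The ER chaperone Hspa5 (BiP), a standard readout of ER stress, had 187 ± 20.4 and 184 ± 20.9 TPM (0.978). Pdia6, a disulfide isomerase, had 123 ± 22.3 and 143 ± 15.3 TPM (0.529). Of 7 genes of mitochondrial stress sensing 0 passed, and 0 at an unadjusted p under 0.05. All 7 log2 fold changes were between -0.26 and -0.11, where 7800 of all 13549 tested genes lay below 0. Among the 7, the chaperone genes Hspe1 and Hspa9 had 235 ± 36.3 and 282 ± 41.0 TPM (0.455), and 291 ± 55.4 and 347 ± 60.6 TPM (0.579).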

How the data were processed

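Per the labels' protocols, total RNA of neurospheres from 5 overexpression and 6 control embryos was sequenced on Illumina HiSeq, with directional and other library kits named but not tied to libraries. The values are TPM as deposited by the authors, in 1 table. In the submitters' processing notes stand DESeq2, HTSeq, StringTie and HISAT2, with the build GRCm38.p5 but no versions or roles. Annotation release and strand setting are not stated there. TPM keeps no depth, so depth is unknown and precision comes from the spread between libraries.

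Symbols were matched by Ensembl identifier (53255 of 53453 rows). Gene coordinates are those of GENCODE M21 (GRCm38) and promoter sequences those of RefSeq, GRCm38.p6. The 13549 genes that reached 1 TPM in 5 or more libraries were tested on log2(TPM + 1) with limma 3.58.1 in R 4.3.3, two-sided, with a variance trend and no covariate. Correlations used exact two-sided permutation of 6 libraries in Python 3.11.15, with Benjamini-Hochberg adjustment over all tested genes. The 33 genes, the lists and the tests were chosen with earlier results of these data known. Named are all 33 genes and, from each other list, called genes and the 2 with the smallest p; Lars2, Eif2s3y, Hspa5, Slc6a9 and Phgdh were added after values were seen. No batch is given in the labels. Values of Ddit3 (Mars), Atf5 (Nup62, Il4i1), Cebpb (Tmem189), Aars (Exosc6), Wars (Wdr25) and Yars (C77080) are uncertain where the overlapping gene in brackets shares reads.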

Additional observations from a re-analysis of the deposited data

Results flagged for a closer look

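Among 92 sets of values, each 1 named gene in 1 group, 5 held a library whose gap to its nearest neighbour took more of the group's range than Dixon's 95% critical value; chance gives about 1 in 20. In the overexpression group, replicate 2 was low for Atf5, at 36.9 TPM with the next library at 68.7 TPM (a gap of 0.779 of the range), for Asns, at 33.9 and 96.5 TPM (0.715), and for Herpud1, at 9.94 and 16.01 TPM (0.802). Among controls, replicate 6 was high for Vldlr, at 24.4 TPM with the next library at 14.8 TPM (0.793), and replicate 1 was low for Qars, at 15.1 and 27.2 TPM (0.811). Without overexpression replicate 2, the log2 fold changes of Atf5, Asns and Herpud1 were -0.11, -0.16 and 0.014, and none passed in limma (adjusted p 0.959, 0.930 and 0.995).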

How the results depend on the processing

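The number of the 33 genes called, 3 in the main analysis, was 2 to 4 with each of 11 libraries left out and 2 to 4 in 9 of 11 other settings. It was 1 without a filter on low values (Gpt2) and 1 with the replicate block (Nupr1), which used 10 libraries; there the adjusted p was 0.0574 for Gpt2 and 0.0760 for Ddit4. Deviations of same-numbered libraries had correlations of -0.0398 to 0.304 over 5 pairs, above 0.1 in 1, which alone matched best to its own number. So few pairs cannot settle whether the numbers pair libraries, and no batch is given in the labels. The calls of Gpt2 and Ddit4 thus depend on leaving out this block. The number of other pathway genes called, 2, was 1 with a pseudocount of 0.1 and with the block, and 0 (unadjusted p under 0.05 for 4 to 9 genes, limma) without a filter, after scaling by trimmed means or by quantiles, without ribosomal RNA-like and mitochondrial rows, without a variance trend and with robust variances. It was 0 to 1 with each library left out. All genes called numbered 504, 349 to 732 in other settings and 386 to 496 with a library left out.

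Genes near 0 changed sign without passing in any setting. Log2 fold changes became positive with trimmed-mean scaling for Cebpg (0.0057), Gars (0.021), Eprs (0.0043) and Iars (0.012); with quantile normalization for Cebpg (0.00050), Aars (0.0081), Gars (0.022), Eprs (0.0081) and Iars (0.013); without ribosomal RNA-like and mitochondrial rows for Cebpg (0.0047), Gars (0.020), Eprs (0.0029) and Iars (0.011). With array weights they were positive for Cebpg (0.040), Trib3 (0.22), Gars (0.071), Tars (0.0038), Eprs (0.0061) and Iars (0.033), and with the replicate block for Trib3 (0.19), Sesn2 (0.083), Aars (0.032), Gars (0.056), Tars (0.015), Eprs (0.042) and Iars (0.10). With a library left out, log2 fold changes ranged from -0.22 to 0.010 for Atf4, -0.12 to 0.030 for Cebpg, -0.34 to 0.30 for Trib3, -0.23 to 0.083 for Sesn2, -0.057 to 0.16 for Vldlr, -0.48 to 0.052 for Eif4ebp1, -0.18 to 0.014 for Herpud1, -0.12 to 0.065 for Aars, -0.089 to 0.12 for Gars, -0.19 to 0.035 for Sars, -0.10 to 0.048 for Tars, -0.11 to 0.042 for Eprs, -0.12 to 0.10 for Iars, -0.067 to 0.19 for Lars, -0.27 to 0.016 for Yars and -0.065 to 0.21 for Cars. The cause was not tested. TPM gives no depth, so no counting limit can be set.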
